A study of Mus musculus with 2 samples.

Results

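The guanylate-binding protein (GBP) family was read as 9 genes, Gbp2, Gbp2b, Gbp3, Gbp4, Gbp5, Gbp6, Gbp7, Gbp8 and Gbp9, out of 32285 genes in the deposited matrices. Each was taken by its symbol. The cells were immune cells taken from inflamed colons of C57BL/6 mice (the labels say experimental colitis, a model of bowel inflammation) and were profiled with a 10x 3′ kit, which counts each captured transcript end once through a unique molecular identifier (UMI). There were 2 libraries, 1 labelled WT (wild type) and 1 labelled CKO, and the series title names loss of RPA1. The sources used here do not give the Cre driver, the deleted exons, the agent that induced colitis, the age of the mice or how many mice went into each library. Since each label has a single library, differences between labels have no replicate check and were not tested. All intervals below are exact 95% intervals that cover counting error only. Log2 ratios have the library labelled CKO as numerator, and where 2 values stand together the library labelled WT comes first.

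GBPs are large GTPases related to dynamins and are among the genes that interferons induce most strongly. Promoters of interferon-induced genes often hold GAS elements or the interferon-stimulated response element (ISRE), and IRF1 is among the factors that bind the ISRE. GBP proteins assemble on the membranes of vacuoles that hold bacteria or parasites and on bacterial lipopolysaccharide, and there they favour caspase-11 (encoded by Casp4) and inflammasome activity. Gbp2, Gbp2b and Gbp5 encode proteins with a site for lipid attachment, which anchors them to membranes, and Gbp5 is also known as a partner of the NLRP3 inflammasome. Gbp7 has been linked to assembly of the phagocyte oxidase.

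The 9 genes lie in 2 groups in the GRCm38 genome (GENCODE vM21 annotation). On chromosome 3, Gbp5, Gbp7, Gbp3, Gbp2b and Gbp2 follow each other on the plus strand within 142493978 to 142638008, with no other protein-coding gene between them. On chromosome 5, Gbp8, Gbp9, Gbp4 and Gbp6 lie on the minus strand within 105014150 to 105293698, together with Gbp10, which is not a member here, and the gene model Gm43302. The models of Gbp4, Gbp8 and Gbp9 overlap on the same strand, so a read from their common stretch could belong to more than 1 of them. In the last 600 bases of coding transcripts, 69.1% of the 90-base stretches of Gbp6 also occur in Gbp10 or Gm43302, so the counts of Gbp6 are the least certain. The share that also occurs in some other gene was 6.54% for Gbp4 (in Gbp6, Gbp9, Gbp11 or Gm43302), 0.373% for Gbp3 (in Gbp7) and 0 for Gbp2, Gbp2b, Gbp5, Gbp7, Gbp8 and Gbp9.

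Promoter sequence (RefSeq, GRCm38.p6) was matched for the 5 members of chromosome 3, with 2 windows for Gbp3, and not for Gbp4, Gbp6, Gbp8 and Gbp9. The 250 bases before each start were searched on both strands for GAS, spelled TTCNNNGAA, and for an ISRE core, spelled GAAA, any 2 bases and GAAA. The ISRE core was found in 5 of the 6 windows, against 2.98% of all 32851 promoter windows of that length. GAS was found in 2 of 6 windows, against 7.02% of all windows, and both motifs together in those same 2, Gbp5 and Gbp7, against 0.332% of all windows. The stretches that hold the matches are shown because the members of chromosome 3 share an ISRE core and yet differ widely in level. They are given 5′ to 3′ on the plus strand, with motif letters in capitals, and the ISRE core appears as its reverse complement.
Gbp5, chr3:142496684-142496898: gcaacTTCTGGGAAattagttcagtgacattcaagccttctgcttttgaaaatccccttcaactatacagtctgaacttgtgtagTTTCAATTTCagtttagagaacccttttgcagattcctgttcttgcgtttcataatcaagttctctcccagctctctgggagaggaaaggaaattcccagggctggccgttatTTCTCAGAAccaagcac
Gbp7, chr3:142530222-142530300: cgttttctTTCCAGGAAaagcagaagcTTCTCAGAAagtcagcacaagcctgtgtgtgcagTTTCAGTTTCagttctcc
Gbp3, chr3:142559991-142560022: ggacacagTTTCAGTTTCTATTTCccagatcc
Gbp2b, chr3:142594702-142594727: acttctaaTTTCACTTTCttctttat
In Gbp3 the capitals cover 2 ISRE matches that overlap. In Gbp2 the match TTTCACTTTC lies 59 to 50 bases before the RefSeq start, inside an exon of another annotated transcript, so no longer stretch is printed. The same 10 letters stand in the Gbp2b stretch. A match is a description of the letters and not evidence that a factor binds there.

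After filtering, 2924 cells of the library labelled WT and 10942 of the library labelled CKO were retained, with 7959 and 57936 GBP UMIs. Clusters were formed without the GBP genes and the 14 immunity-related GTPase genes of the list used here, and were named from marker genes. The counts of these genes thus did not shape the clusters directly. The gene model Gm43302, which shares transcript ends with Gbp6, was not left out. Other interferon-induced genes stayed in the clustering, so clusters and their GBP levels are not independent of the interferon response. The 9 classes with 20 or more cells in both libraries were neutrophil-like (182 and 1799 cells), monocyte and macrophage-like (26 and 825), DC-like, for dendritic cells (26 and 328), T-like (363 and 612), NK-like (47 and 404), ILC2-like (102 and 269), ILC3-like (35 and 107), B-like (1124 and 5008) and plasma-like cells (208 and 479). At least 20% of cells held a UMI of 9 of 9 marker genes in neutrophil-like and T-like cells, and of 8 of 8 in NK-like, ILC2-like, B-like and plasma-like cells. Fewer were met in monocyte and macrophage-like (7 of 11), ILC3-like (7 of 8) and DC-like cells (7 and 5 of 10, with 2 at 0 in the library labelled WT). The libraries shared 6 barcodes. Rpa1 did not settle the label. In T-like cells it stood at 37.7 and 54.9 CPM (counts per 1000000 UMIs of the class), on 71 and 141 UMIs, log2 ratio 0.54 (0.12 to 0.97). In B-like cells it stood at 28.2 and 25.2 CPM, on 147 and 418 UMIs (-0.16, -0.44 to 0.12). The NK-like ratio rests on 1 and 71 UMIs (3.14, 0.61 to 8.46). In the remaining classes the interval held 0. A 3′ count outside the deleted part would check nothing, so the labels are used only as names of libraries.

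GBP transcripts were most abundant in neutrophil-like cells and least abundant in plasma-like cells of both libraries. Levels are in CPM, summed over the 9 members. A transcript gives at most 1 UMI whatever its length, so values are not divided by length. Neutrophil-like cells held 2341 CPM (2192 to 2498) in the library labelled WT and 3299.9 CPM (3251 to 3349.5) in the library labelled CKO. Next came monocyte and macrophage-like cells with 1184 CPM (1049 to 1332) and 2075 CPM (2039.8 to 2112). Both are phagocytes, the cells in which GBPs have been studied most. T-like cells were the third in both libraries, with 924 CPM (881 to 969) and 726 CPM (693 to 759.7). Plasma-like cells, whose RNA is dominated by immunoglobulin transcripts, held 113 CPM (103 to 123) and 165 CPM (156 to 174). With immunoglobulin, ribosomal and mitochondrial genes left out of the total, plasma-like cells stood at 315 and 443 CPM, still the lowest but close to ILC3-like cells at 355 and 464 CPM.

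The order of the classes between these ends differed between the libraries. In the library labelled WT, NK-like cells (687 CPM, 588 to 798) and ILC2-like cells (548 CPM, 489 to 612) had intervals that overlapped. Below them DC-like (334 CPM), B-like (314 CPM) and ILC3-like cells (277 CPM) formed a group whose intervals also overlapped. In the library labelled CKO, T-like, DC-like (692 CPM, 663 to 722) and ILC2-like cells (688 CPM, 633 to 746) could not be separated by their intervals. B-like and NK-like cells stood close together there, at 605 CPM (594 to 617) and 607 CPM (573 to 641), and ILC3-like cells lower, at 364 CPM (313 to 422). In bulk sums over a class, fewer GBP-rich cells and less GBP RNA per cell cannot be told apart.

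**Figure D1:**
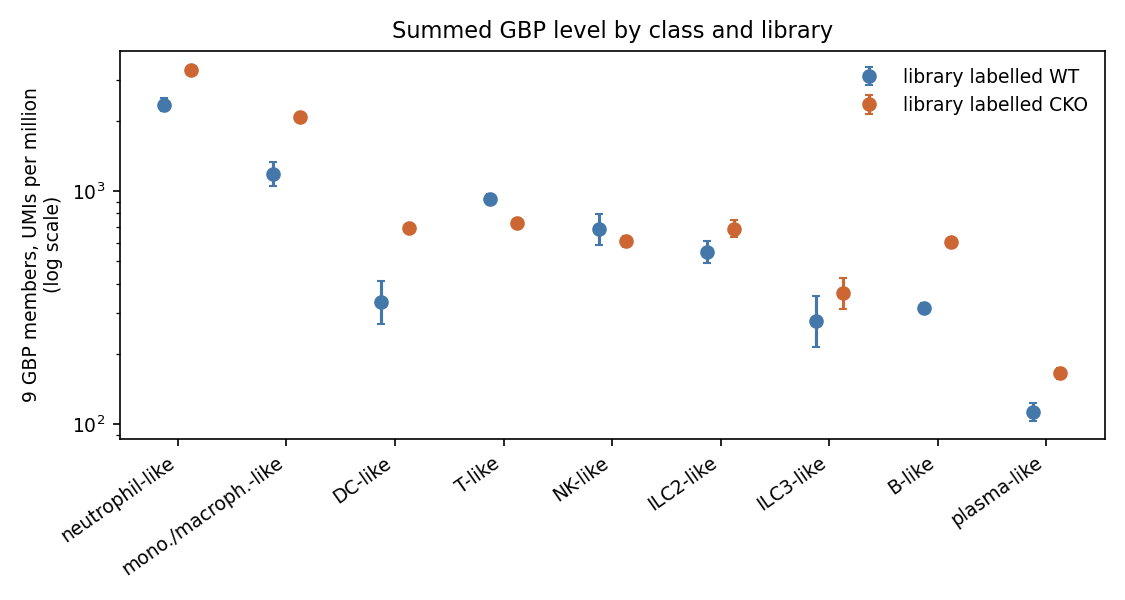
Summed level of the 9 GBP members, in CPM on a log scale, for 9 classes in the libraries labelled WT (blue) and CKO (orange); bars are exact 95% intervals of the count. Neutrophil-like cells sit highest at 2341 and 3299.9, plasma-like cells lowest at 113 and 165, and T-like cells are the class whose intervals separate with the library labelled CKO lower.

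The members did not contribute alike in every class. Gbp2 led in phagocytes: in neutrophil-like cells it stood at 1250.3 and 1852 CPM, which was 53.4 and 56.1% of all GBP UMIs. Gbp5 followed there with 383 and 566 CPM, and Gbp7 with 359 and 462 CPM. In B-like cells Gbp2 gave only 12.7 and 16.6% of GBP UMIs, while Gbp7 (76.1 and 154 CPM) and Gbp4 (71.3 and 141 CPM) led in both libraries. In ILC2-like cells Gbp4 led, with 141 and 183 CPM. Gbp6, at 82.8 and 101 CPM in ILC2-like cells, stood above its 20.5 and 19.1 CPM in neutrophil-like cells although the family as a whole was far lower. Gbp8, the least abundant member after Gbp2b, reached 24.7 and 61.4 CPM in ILC2-like and 36.1 and 47.1 CPM in T-like cells, against 2.57 and 13.8 CPM in neutrophil-like cells.

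**Figure D2:**
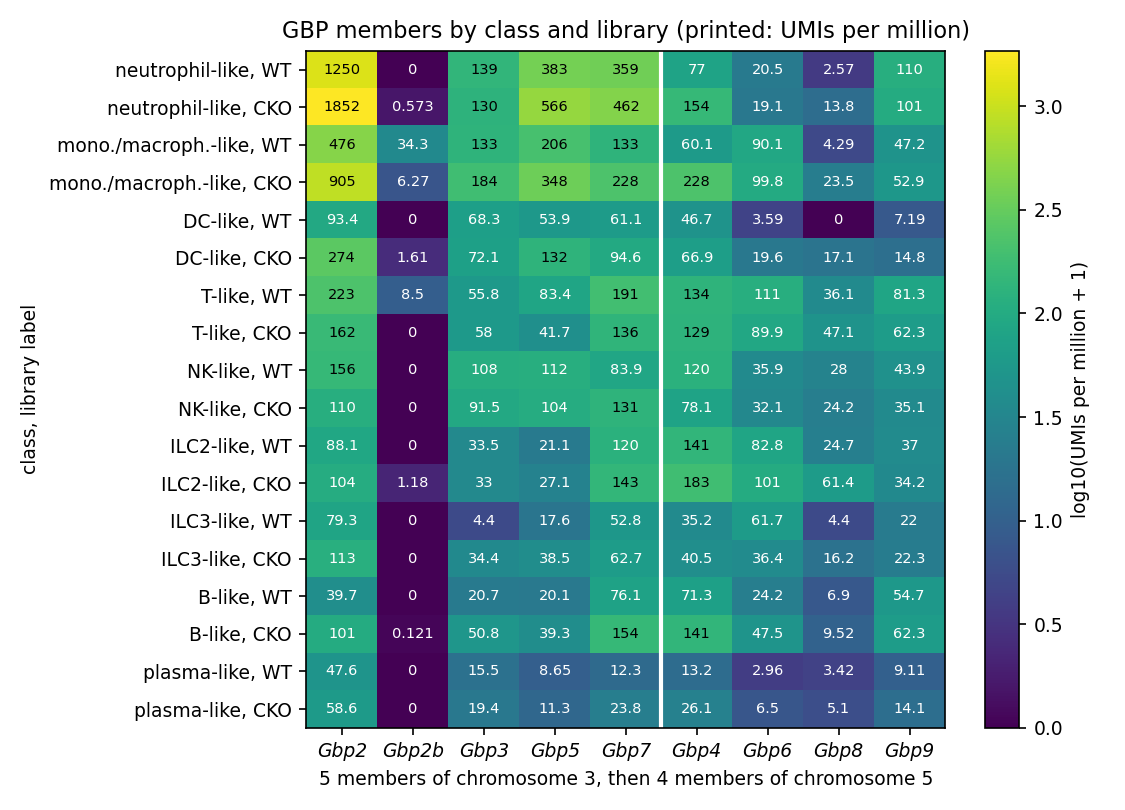
Level of each GBP member in CPM (printed numbers) by class and library label (rows), coloured by log10 of the value plus 1; the white line parts the 5 members of chromosome 3 from the 4 of chromosome 5. Gbp2 is brightest in neutrophil-like and monocyte and macrophage-like rows, and Gbp2b is at or near 0 in most rows.

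The shift can be read by genomic group. The 4 members of chromosome 5 gave 8.99 and 8.73% of GBP UMIs in neutrophil-like cells, with intervals of 7.21 to 11.0 and 8.32 to 9.16%. They gave 17.0 and 19.5% in monocyte and macrophage-like cells and 17.2 and 17.1% in DC-like cells. In lymphoid classes their share was higher: 39.3 and 45.3% in T-like, 33.1 and 28.0% in NK-like, 50.1 and 43.0% in B-like, 52.1 and 55.2% in ILC2-like and 44.4 and 31.7% in ILC3-like cells. Plasma-like cells, with 25.5 and 31.4%, lay below these lymphoid classes in the library labelled WT and within their range in the other. Between libraries the direction differed by class: in T-like cells the intervals separated upwards (36.9 to 41.6 and 43.0 to 47.5%) and in B-like cells downwards (47.6 to 52.5 and 42.0 to 44.0%). Part of the chromosome 5 count is Gbp6, whose transcript end is largely shared with Gbp10.

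**Figure D3:**
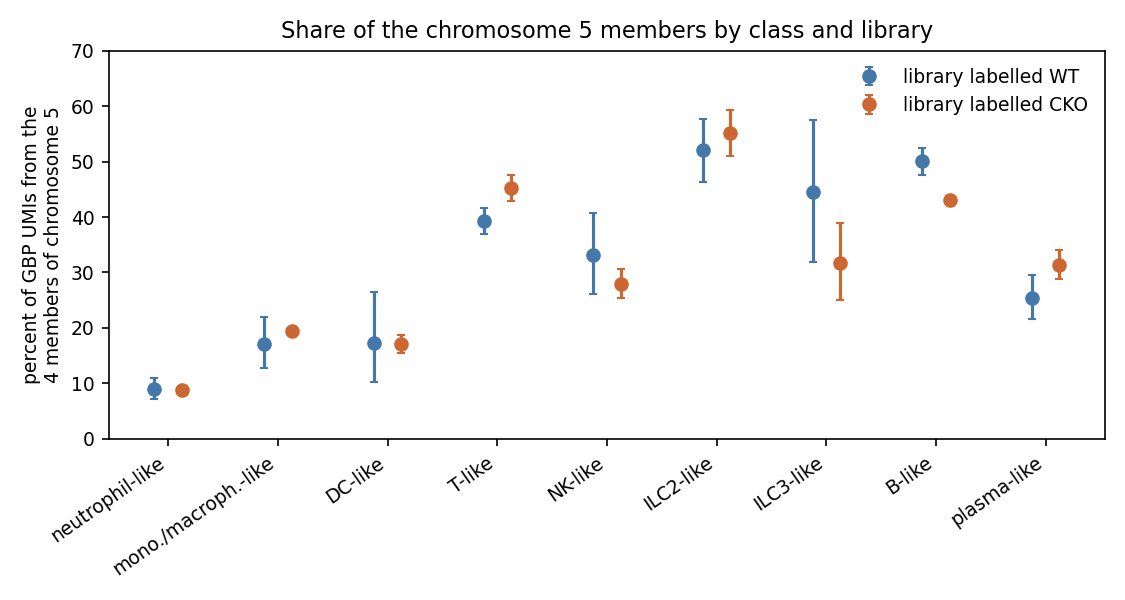
Percent of GBP UMIs that came from Gbp4, Gbp6, Gbp8 and Gbp9, the members of chromosome 5, by class in the libraries labelled WT (blue) and CKO (orange), with exact 95% binomial intervals. Neutrophil-like cells lie lowest, at 8.99 and 8.73%, and ILC2-like cells highest, at 52.1 and 55.2%.

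How members varied together over the 18 pairs of class and library is given as a description. On log2 of CPM plus 10, Gbp2 went most closely with Gbp5 (Pearson r = 0.95), Gbp3 with Gbp5 (r = 0.91) and Gbp7 with Gbp9 (r = 0.85). Gbp4 went most closely with Gbp7 (r = 0.80), so the last of these pairs and this one each join a member of chromosome 3 with one of chromosome 5. Gbp2 went least with Gbp8 (r = 0.05) and Gbp6 (r = 0.20). The 18 points share 2 libraries and their depths, so no p is given.

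Gbp2b was nearly silent. It gave 26 UMIs in all retained cells of the library labelled WT and 76 in the library labelled CKO, 1.40 and 1.36 CPM, and its promoter holds the same 10 ISRE letters as that of Gbp2. In B-like cells it gave 0 and 2 UMIs, and in plasma-like, NK-like and ILC3-like cells none in either library. For B-like cells of the library labelled WT, 0 UMIs allow up to 0.575 CPM at the limit of 3 counts. What little there was came from few cells. In the library labelled WT, T-like cells gave 16 UMIs from 3 cells, 11 of them from 1 cell, all in the cluster led by Tnfrsf4 and Icos, and in the other library they gave 0. In monocyte and macrophage-like cells all 8 UMIs of the library labelled WT came from 1 of 26 cells. In the library labelled CKO 39 UMIs came from 24 of 825 such cells, 26 of them in the cluster led by C1qa, a complement gene of tissue macrophages. Its ratios therefore rest on single cells.

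In B-like cells GBP levels were higher in the library labelled CKO. All 8 members with at least 20 UMIs had a log2 ratio above 0, and 6 of 8 were at least 1.5-fold higher in the library labelled CKO, where 5.08% of 10679 genes read in B-like cells were. None was 1.5-fold lower, against 7.58% of genes. The median over these 8 was 0.98, against -0.04 over all genes read. They are not all members, since Gbp2b did not reach 20 UMIs.

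Gbp2 stood at 39.7 and 101 CPM in B-like cells, log2 ratio 1.34 (1.14 to 1.56). Gbp3 stood at 20.7 and 50.8 CPM, log2 ratio 1.29 (1.004 to 1.60). Gbp7 had a log2 ratio of 1.02 (0.86 to 1.17), Gbp4 of 0.98 (0.83 to 1.15), Gbp6 of 0.98 (0.70 to 1.26) and Gbp5 of 0.96 (0.67 to 1.28). The 2 members short of 1.5-fold were Gbp8, at 6.90 and 9.52 CPM (0.46, -0.07 to 1.03), and Gbp9, at 54.7 and 62.3 CPM (0.19, -0.0024 to 0.38). Neutrophil markers in B-like cells summed to 72.7 and 281 CPM, and plasma markers to 909.6 and 555 CPM. GBP RNA carried over with S100a8 was reckoned, here and below, at the ratio of GBP to S100a8 UMIs in all neutrophil-like cells of the same library. If all S100a8 in B-like cells came from such RNA, the GBP UMIs carried with it would make up 0.504 and 0.858% of those measured. Free RNA of other cells was not reckoned. The part of plasma markers in the result was not tested.

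T-like cells differed from this. Their summed level was lower in the library labelled CKO, 924 against 726 CPM, log2 ratio -0.35 (-0.44 to -0.25). Of 8 members read, 1 was 1.5-fold lower, where 7.89% of 8710 genes were, and 0 were 1.5-fold higher, where 13.0% were. The lower member was Gbp5, at 83.4 and 41.7 CPM, log2 ratio -1.002 (-1.37 to -0.64). Gbp7 stood at 191 and 136 CPM (-0.49, -0.70 to -0.27), and Gbp2 at 223 and 162 CPM (-0.47, -0.66 to -0.27). For Gbp9 and Gbp6 the ratios were -0.38 (-0.71 to -0.05) and -0.30 (-0.58 to -0.03). The intervals of Gbp4, Gbp3 and Gbp8 held 0, with ratios of -0.06, 0.06 and 0.38. The median over the 8 was -0.34, against 0.06 over all genes.

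This lower sum in T-like cells went with a different mix of T cell clusters and did not hold within most of them. The cluster led by Lef1, Ly6c1 and Tcf7, genes of naive and central memory T cells, had a high GBP level and made up 38.3 and 13.7% of the T-like class. Within that cluster GBP stood at 1330.4 and 1709 CPM, log2 ratio 0.36 (0.19 to 0.53). Of 6 T-like clusters with at least 10 cells in each library, 4 had ratios above 0, of which 2 had intervals above 0. Of the other 2, 1 had an interval below 0. The lowest was the cluster led by Tnfrsf4 and Icos, genes of activated T cells, at 769 and 533 CPM (-0.53, -0.82 to -0.23), and the highest the cluster led by Ikzf2 and Cd7, at 277 and 459 CPM (0.73, 0.43 to 1.03). With clusters weighted alike in both libraries the T-like ratio turned to 0.20, with Gbp2 at 0.40 and Gbp5 at -0.18. Over 5 clustering seeds, an alternative added after seeing the data, the T-like ratio ranged from -0.35 to -0.34 over all cells and from 0.18 to 0.24 with clusters weighted alike. With cells called by their own markers in place of clusters it was -0.10. Neutrophil markers in T-like cells summed to 73.3 and 237 CPM, ILC3 markers to 528 and 1147 CPM and plasma markers to 549 and 243 CPM, and GBP UMIs carried with S100a8 would make up 0.151 and 0.537% of those measured. The part of ILC3 and plasma markers in the result was not tested.

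**Figure D4:**
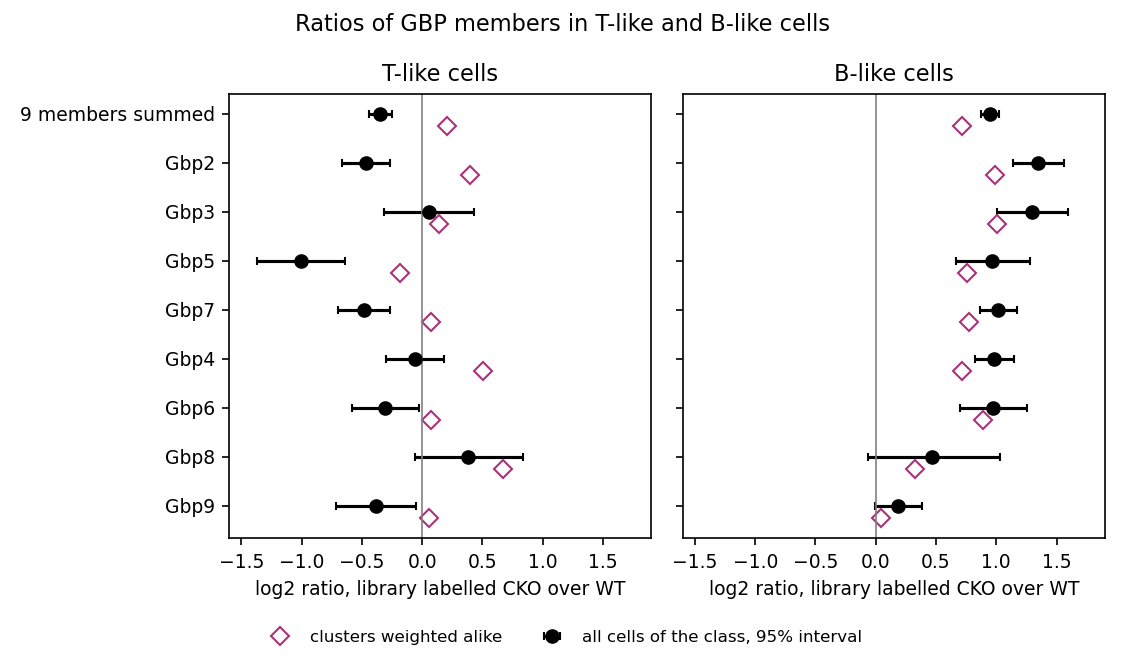
Log2 ratio (library labelled CKO over WT) of the summed family and of 8 members in T-like (left) and B-like cells (right); black points are all cells of the class with exact 95% intervals, open diamonds have the clusters weighted alike. In B-like cells every point lies right of 0, while in T-like cells the summed value moves from -0.35 to 0.20 with the weighting.

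In B-like cells weighting the clusters alike moved the ratio less. Of 9 B-like clusters with at least 10 cells in each library, 8 had a ratio above 0 with an interval above 0. They ranged from 0.45 in the cluster led by Ighd and Serpina3f (594 and 811 CPM) to 1.30 in the cluster led by Ebf1, Scd1 and Klf2 (206 and 506 CPM), which made up 29.8 and 8.01% of B-like cells. The exception, led by Scd1, Ebf1 and Trim7, had 10 cells in the library labelled WT and stood at 792 and 554 CPM (-0.51, -1.08 to 0.11). With clusters weighted alike the B-like ratio was 0.71, against 0.95 (0.87 to 1.02) over all cells. Over the 5 clustering seeds these ratios ranged from 0.71 to 0.86 and from 0.94 to 0.95.

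In neutrophil-like cells the family ratio was 0.50 (0.40 to 0.59). Of 8 members read, 2 were 1.5-fold higher, where 19.9% of 6256 genes were, and 0 were 1.5-fold lower, where 26.1% were, so the share of members that were higher was close to that of all genes. Those 2 were Gbp4, at 77.0 and 154 CPM (1.002, 0.48 to 1.58), and Gbp8, which rests on 1 and 72 UMIs (2.42, -0.10 to 7.75). Gbp2 had a ratio of 0.57 (0.44 to 0.70) and Gbp5 of 0.57 (0.33 to 0.81). The ratios of Gbp3 (-0.09), Gbp6 (-0.10) and Gbp9 (-0.13) each had 0 inside the interval. The markers of the class itself summed to 84158 and 169038 CPM, monocyte and macrophage markers to 4329 and 7786 CPM and plasma markers to 886 and 289 CPM, and their part in the result was not tested.

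Neutrophil-like clusters differed among themselves, from 1554 to 5063 CPM over both libraries. The cluster led by Rsad2, Cstdc4 and Cxcl10, with Rsad2 and Cxcl10 known as interferon-induced, had the highest GBP level of all clusters read, with Gbp2 alone at 2919 CPM. The cluster led by Ngp, Retnlg and Lcn2, with Ngp and Lcn2 genes of young neutrophils' granules, stood at 2017 CPM and held 2 and 458 cells. Of 4 clusters with at least 10 cells in each library, 3 had ratios above 0, up to 1.54 in the cluster led by G0s2 and Hdc (984 and 2852 CPM), which was the lowest of the 4 in the library labelled WT. In the Rsad2 cluster the value was lower in the library labelled CKO, 6496 and 5006 CPM (-0.38, -0.55 to -0.20), with 15 cells in the library labelled WT. The cluster led by Hcar2 and Osm, the lowest over both libraries together, made up 50.5 and 4.34% of the class and stood at 1137 and 1968 CPM (0.79, 0.54 to 1.05). With clusters weighted alike the class ratio was 0.23, and over the 5 clustering seeds that value ranged from 0.23 to 0.76. The 0.23 leaves out the cluster led by Ngp, which had 2 cells in the library labelled WT.

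**Figure D5:**
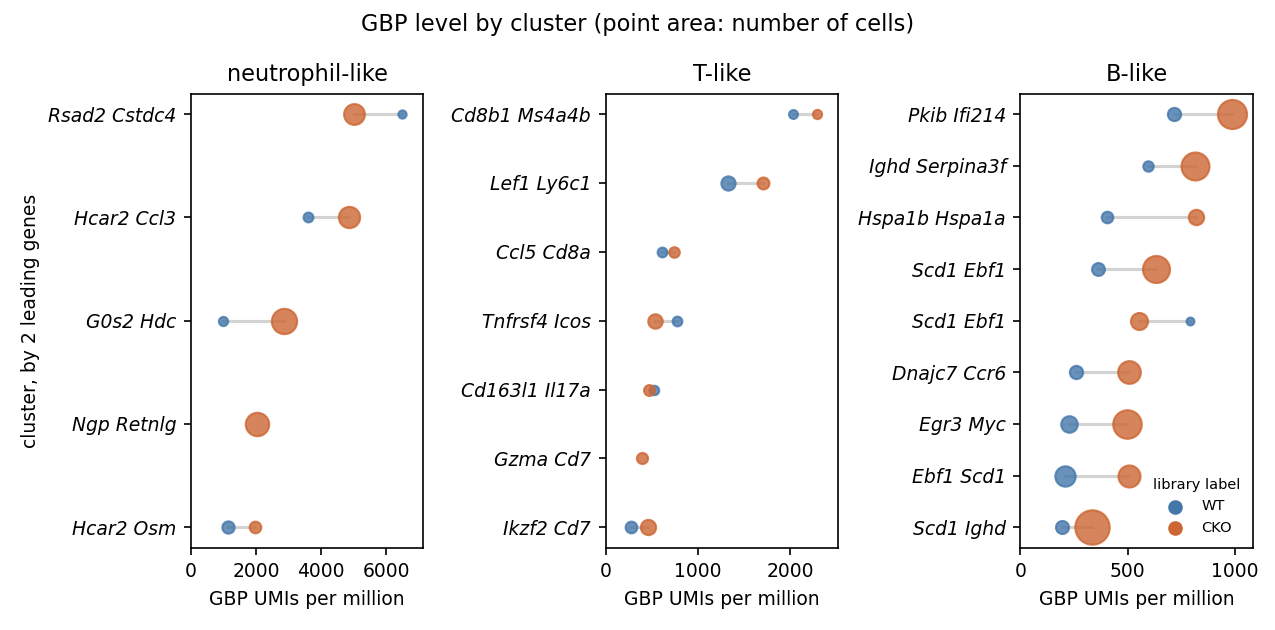
Summed GBP level in CPM for each cluster of neutrophil-like, T-like and B-like cells, named by its 2 leading genes, in the libraries labelled WT (blue) and CKO (orange) where at least 10 cells were present; point area grows with the number of cells. Of 9 B-like pairs, 8 have the orange point to the right, and T-like pairs go in both directions.

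Monocyte and macrophage-like cells had a family ratio of 0.81 (0.64 to 0.99) on 26 cells of the library labelled WT. Of 9 members read, 5 were 1.5-fold higher, where 16.3% of 8582 genes were, and 1 was 1.5-fold lower, where 19.6% were. The largest ratio with an interval above 0 was that of Gbp4, at 60.1 and 228 CPM (1.92, 1.17 to 2.80). Gbp2 stood at 476 and 905 CPM (0.93, 0.66 to 1.21), Gbp7 at 133 and 228 CPM (0.78, 0.27 to 1.34) and Gbp5 at 206 and 348 CPM (0.76, 0.34 to 1.20). The fifth, Gbp8, rests on 1 and 146 UMIs. The lower member was Gbp2b, which in the library labelled WT came from 1 cell. As a mean over cells, the class ratio was 0.48. S100a8, a neutrophil gene, stood at 2222 and 3626 CPM in this class, and GBP UMIs carried with it from neutrophil RNA would make up to 21.5 and 10.6% of those measured. Plasma markers summed to 4089 and 842 CPM in this class, T cell markers to 408 and 65.7 CPM and ILC3 markers to 322 and 105 CPM. The part of these markers in the result was not tested.

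DC-like cells had a family ratio of 1.05 (0.75 to 1.37), with 93 GBP UMIs in 26 cells of the library labelled WT. Of 8 members read, 6 were 1.5-fold higher, where 22.2% of 7821 genes were, and 0 were 1.5-fold lower, where 14.3% were. Gbp2 stood at 93.4 and 274 CPM (1.55, 0.99 to 2.18) and Gbp5 at 53.9 and 132 CPM (1.29, 0.55 to 2.14). Gbp8 had 0 and 53 UMIs, at least 1.58-fold higher against the limit of 3 counts. Of the 6, the intervals of Gbp2, Gbp5 and Gbp8 lay above 0. Those of Gbp7 (0.63, -0.07 to 1.43), Gbp6 (2.45, -0.08 to 7.78, on 1 and 61 UMIs) and Gbp9 (1.04, -0.89 to 4.13, on 2 and 46 UMIs) held 0. Markers of some other cells were higher as well: neutrophil markers summed to 1531 and 3780.2 CPM, monocyte and macrophage markers to 1067 and 1784 CPM and T cell markers to 21.6 and 149 CPM, beside 1085 and 1562 CPM for the DC markers themselves. GBP UMIs carried with S100a8 would make up 8.0 and 8.68% of those measured, and the part of the other markers was not tested. A single cell gave 32.3% of the GBP UMIs of the library labelled WT. When each cell was called by its own markers, which left 13 DC-like cells in the library labelled WT, the ratio turned to -0.22, and over the 5 clustering seeds it ranged from 0.77 to 1.07.

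NK-like cells, lymphocytes that make interferon-gamma, showed no difference of the class sum beyond counting error, 687 and 607 CPM (-0.18, -0.41 to 0.06). This ratio changed sign over the 5 clustering seeds (-0.18 to 0.13). The 0.13 came from a seed under which the class held 29 and 298 cells in 1 cluster. With the main seed it held 47 and 404 cells in 2 clusters, so the class itself differed. The 2 NK-like clusters of the main clustering went opposite ways. The cluster led by Ifng and Xcl1 stood at 878 and 575 CPM (-0.61, -0.93 to -0.29). The cluster led by Gzma and Prf1 stood at 533 and 632 CPM (0.24, -0.10 to 0.61). Of 8 members read, 1 was 1.5-fold higher, where 17.3% of 6923 genes were, and 1 was 1.5-fold lower, where 13.6% were. These were Gbp7, at 83.9 and 131 CPM (0.64, 0.0012 to 1.36), and Gbp4, at 119.8 and 78.1 CPM (-0.62, -1.19 to -0.0029). ILC3 markers summed to 1602 and 502 CPM in NK-like cells, T cell markers to 1094 and 1206 CPM and plasma markers to 395 and 182 CPM. Neutrophil markers summed to 71.9 and 275 CPM and monocyte and macrophage markers to 355 and 576 CPM. The NK markers themselves summed to 2788 and 2701 CPM. The part of the other markers in the result was not tested.

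ILC2-like cells, tissue lymphocytes that make type 2 cytokines, had a family ratio of 0.33 (0.13 to 0.53). Gbp8 was their 1 of 8 members 1.5-fold higher (13.3% of 5309 genes), at 24.7 and 61.4 CPM (1.32, 0.44 to 2.28), and 0 were 1.5-fold lower (9.89% of genes). In ILC3-like cells 5 members were read and the family ratio was 0.39 (-0.03 to 0.83). There 1 member, Gbp5, was higher (13.0% of 4181 genes) and 1, Gbp6, lower (14.2% of genes), each with 0 inside its interval. Plasma markers summed to 317 and 2729 CPM in ILC3-like cells and neutrophil markers to 123 and 261 CPM. T cell markers summed to 687 and 291 CPM and DC markers to 823 and 579 CPM. The ILC3 markers themselves summed to 35515 and 36556 CPM. The part of the other markers in the result was not tested.

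Plasma-like cells had low levels and a family ratio of 0.55 (0.40 to 0.70). Of 8 members read, 4 were 1.5-fold higher, where 6.36% of 8984 genes were, and 0 were 1.5-fold lower, where 9.87% were. Gbp4 stood at 13.2 and 26.1 CPM (0.98, 0.56 to 1.43), Gbp7 at 12.3 and 23.8 CPM (0.95, 0.51 to 1.42) and Gbp9 at 9.11 and 14.1 CPM (0.63, 0.10 to 1.19). Gbp6, at 2.96 and 6.50 CPM, was the fourth (1.13, 0.23 to 2.14). Under a stricter cell filter clusters that named plasma-like held 458 in place of 208 cells of the library labelled WT; no member was 1.5-fold higher and the family ratio was 0.19.

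The share of cells with at least 1 GBP UMI was compared after each cell was thinned to 1000 UMIs. In neutrophil-like cells it was 59.4% (51.3 to 67.1) and 81.9% (80.0 to 83.7), and 65.9 and 93.6% without thinning. In B-like cells it was 23.9% (21.4 to 26.5) and 40.5% (39.2 to 41.9), and 55.3 and 67.5% without thinning. T-like cells had 51.1% (45.8 to 56.4) and 45.2% (41.2 to 49.3), and 82.1 and 78.6% without thinning. Neutrophil-like and B-like shares were thus higher in the library labelled CKO at equal depth, as their summed levels were. Thinning left out 5 and 15 T-like, 12 and 69 B-like and 22 and 76 neutrophil-like cells. S100a8, a neutrophil gene, was found in 1.89 and 8.52% of B-like and 1.40 and 6.53% of T-like cells at the same depth. It does not measure free GBP RNA from other cells, whose part in the GBP shares was not tested. Median depths were 4059 and 2939 UMIs in B-like, 4675 and 3809.5 in T-like and 2049 and 2580.0 in neutrophil-like cells.

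GBP UMIs were unevenly spread over cells within a class. The 10% of neutrophil-like cells with most GBP UMIs held 49.7 and 30.9% of them, with 13.7 and 14.8% of all UMIs of the class. In B-like cells the top 10% held 49.6 and 37.6%, and the median cell held 1 GBP UMI in each library. Cells with UMIs of 2 or more members after thinning made up 5.58 and 12.4% of B-like and 19.8 and 18.4% of T-like cells.

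Other genes of the pathway were read from lists. Their ratios are over all cells of a class and were not recomputed with clusters weighted alike. In T-like cells that weighting turned the summed GBP ratio from -0.35 to 0.20. The part of the cluster mix in the T-like list values below was therefore not tested. Over all genes read, 5.08% were 1.5-fold higher and 7.58% lower in B-like cells, 13.0% and 7.89% in T-like cells and 19.9% and 26.1% in neutrophil-like cells, and the counts below are to be read against these shares. The immunity-related GTPases, another family of interferon-induced GTPases that act on the same vacuoles, had 6 of 12 genes read at least 1.5-fold higher and 0 lower in B-like cells, with a median of 0.53. Iigp1 led there, at 8.63 and 33.8 CPM (1.97, 1.53 to 2.44). In T-like cells 6 of 11 were 1.5-fold lower and 1 higher, with a median of -0.60, and Tgtp1 stood lowest, at 44.1 and 19.5 CPM (-1.18, -1.72 to -0.66). In neutrophil-like cells 6 of 11 were higher and 1 was lower (median 0.67). The medians of the GBP members and of the immunity-related GTPases had the same sign in these 3 classes and in DC-like (0.85 and 0.63), NK-like (-0.22 and -0.51) and ILC2-like cells (0.27 and 0.60). They had opposite signs in plasma-like (0.61 and -0.16) and ILC3-like cells (0.25 and -0.14), and in monocyte and macrophage-like cells stood at 0.76 and 0.02.

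Transcription factors that act on GBP promoters were read next. Irf1 stood at 159.8 and 248 CPM in B-like cells (0.64, 0.53 to 0.75), and was the 1 of 6 factors read that was 1.5-fold higher there. In neutrophil-like cells 3 of 7 factors were at least 1.5-fold higher and 1 was lower, among them Irf1 (0.59) and Batf2, on 1 UMI in the library labelled WT, on the higher side and Irf8 on the lower. Stat2, part of the complex that type I interferon activates, was the 1 factor 1.5-fold lower in T-like cells, at 78.6 and 45.2 CPM (-0.80, -1.16 to -0.44), and Irf8 the 1 higher (1.49, 1.16 to 1.83).

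The ligand gene Ifng stood at 39.8 and 858 CPM in T-like cells, log2 ratio 4.43 (4.10 to 4.78). Beside it the summed GBP ratio was -0.35 over all T-like cells and 0.20 with clusters weighted alike. In NK-like cells Ifng stood at 1554 and 4565 CPM (1.55, 1.41 to 1.70). There the GBP sum of the class did not differ beyond counting error, while it was lower in the cluster led by Ifng. In B-like cells the receptor genes Ifngr1 and Ifngr2 had ratios of -0.05 (-0.22 to 0.12) and 0.04 (-0.12 to 0.20). Of the inflammasome partners, 4 of 7 read were higher and 0 lower in T-like cells. These 4 were Il1b, a cytokine of myeloid cells, at 21.2 and 77.1 CPM (1.86, 1.36 to 2.39), Nlrp3 (1.65), Casp4 (1.58) and Gsdmd (0.73). In B-like cells 2 of 10 were higher and 2 lower. Il1b (1.58) and Nlrp3 (1.33) were the higher pair and Casp1 (-0.73) and Il18 (-0.86) the lower pair, with Casp4 at 33.6 and 31.2 CPM. Neutrophil markers were also higher in both classes, as given above, and their part in Il1b was not tested.

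Genes induced mainly by type I interferon, the interferon of antiviral responses, gave other counts. In B-like cells 1 of 13 was 1.5-fold higher and 0 lower, with a median of 0.27 beside the 0.98 of the GBP members. In neutrophil-like cells 0 of 12 were higher and 0 lower, with Isg15, a ubiquitin-like modifier, at 3641 and 3004 CPM (-0.28, -0.36 to -0.20). In T-like cells 6 of 13 were lower and 0 higher, with a median of -0.43. Interferon-gamma induced genes that are not GTPases had 2 of 11 higher and 0 lower in B-like cells (median 0.30), and 1 of 9 higher and 0 lower in T-like cells (0.05). Feedback inhibitors had 0 of 5 higher and 0 lower in B-like cells, and 2 of 5 lower in T-like cells. Genes of lipid attachment and placement on vacuoles had 1 of 17 higher in B-like cells and 1 of 16 lower in T-like cells. Gbp10, the neighbour of Gbp6, stood at 4.99 and 8.92 CPM in B-like cells (0.84, 0.23 to 1.5) and at 12.7 and 10.9 CPM in T-like cells (-0.23, -1.07 to 0.62). These values are uncertain, since 100% of the 90-base stretches at its transcript end also occur in Gm43302. Whether the lists differ from each other was not tested.

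Genes whose level over the 18 pairs of class and library was most like the summed GBP level were named among 4851 candidates. The closest were Rtp4 (Pearson r = 0.94), Tbk1 (0.94), Rbms1 (0.93), Ppp1r18 (0.93) and Arid5b (0.92), followed by Nt5c3 (0.91), Parp14 (0.90), Ifi47 (0.90), Apbb1ip (0.90) and Oas3 (0.90). Rtp4, Parp14 and Oas3 are interferon-induced, Tbk1 encodes a kinase of innate sensing, and Ifi47 is an immunity-related GTPase. With Spearman's correlation in place of Pearson's, 3 of these 10 genes stayed among the 10 closest. Single members had other neighbours: Oas3, Slc16a3 and Nod1 for Gbp2, Abr, Myd88 and Slc16a3 for Gbp5, Arid5b, Trim56 and Samd9l for Gbp7, Vps54, Spin1 and Herc4 for Gbp4 and Tapbpl, Vps54 and Tprgl for Gbp8. Since the points share 2 libraries, these are descriptions of these cells.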

How the data were processed

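The deposited matrices hold whole-number UMI counts per gene and cell barcode, 1 library per label, made by the authors with Cell Ranger: 6.0.1 per the file headers, 5.0.0 with mm10 and Seurat 3.2.3 per the submitters' processing notes. The libraries labelled WT and CKO held 2972 and 11311 barcodes with 18627050 and 57740083 UMIs (medians 4083 and 3338 per barcode). Cells with at least 200 genes and at most 20% mitochondrial UMIs were kept, and 1 and 213 doublets marked by Scrublet were left out. Clustering used scanpy 1.11.5 and leidenalg 0.10.2 under Python 3.11.15 (2000 variable genes, 30 components, resolution 1, then 1500 genes and 20 components within compartments). Clusters were named by a rule set after seeing the data. It asked for at least 3 markers found in 20% of cells and a marker score of at least 0.25. The score is the mean, over markers of a class, of CPM over the highest CPM in any cluster. Further limits concerned the number of markers, rival classes, leading genes and depth. Mixed cells (217 and 635) and unnamed cells (575 and 334) were read in no class.

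UMIs were summed per class and library and divided by all UMIs of the class. Intervals are exact (Poisson, conditional for ratios, Clopper-Pearson for shares, with SciPy 1.17.1 and NumPy 2.4.6). The ratio intervals were run on counts simulated with Poisson error alone, the error they assume. That run checks the calculation only, since it holds no uneven spread of UMIs over cells. PCR duplicates are removed by UMIs, and the intervals cover counting error only. Genes with 20 or more UMIs over both libraries were counted at 1.5-fold, with a count of 0 set to 3. Named genes are all 9 members, up to 4 examples of the largest ratios per list and class, the 10 genes most like the summed family and the 3 most like each member (100 or more UMIs, 50 CPM in some class); other list genes in the text were chosen after their values were seen. The members and lists were chosen with earlier results of these data known, and 1 list gene is not reported here. Alternatives changed the cell filter, classes, clustering, totals, weights, minimums and depth. With clusters weighted alike, each cluster had the same weight in both libraries, set by its UMIs in both together. Larger clusters thus counted more. Clusters with fewer than 10 cells in either library were left out, so 1 cluster remained in monocyte and macrophage-like cells. Clusters depend on small numerical differences, so 4 other clustering seeds were added as an alternative after seeing the data.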

Additional observations from a re-analysis of the deposited data

Results flagged for a closer look

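B-like and T-like cells went opposite ways between the same 2 libraries, for the summed GBP level and for 4 members. The log2 ratio in B-like minus that in T-like cells was 1.30 for the family, 1.81 for Gbp2, 1.97 for Gbp5, 1.28 for Gbp6 and 1.502 for Gbp7. With 1 library per label the difference was not tested. With clusters weighted alike the T-like ratios were 0.20 for the family, 0.40 for Gbp2, -0.18 for Gbp5, 0.07 for Gbp6 and 0.07 for Gbp7. The B-like ratios were then 0.71, 0.99, 0.76, 0.89 and 0.77, so of these 5 Gbp5 alone still had opposite signs.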

How the results depend on the processing

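No paired analysis was possible because each label has 1 library. Of the values recomputed, 76 of 90 family ratios, 103 of 144 levels, 96 of 117 counts of higher members and 99 of 117 counts of lower members stayed within the counting interval or within 1.5 times. For the others, below, the cause was not tested. With cells called by their own markers (12 monocyte and macrophage-like and 13 DC-like cells in the library labelled WT), the family log2 ratio reversed to -0.22 in DC-like, 0.21 in NK-like and -0.51 in ILC3-like cells, and was -0.10 in T-like and 0.15 in plasma-like cells. Levels were then 3173 CPM in neutrophil-like, 1807 in monocyte and macrophage-like, 317 in DC-like, 753 in ILC2-like and 619 in B-like cells, all labelled CKO, 524 in NK-like and 456 in ILC3-like cells of the library labelled WT, and 856 and 797 in T-like and 163 and 181 in plasma-like cells. Higher members numbered 1 in DC-like, 3 in NK-like, 2 in ILC2-like, 0 in ILC3-like and 1 in plasma-like cells. Lower members numbered 2 in DC-like, 1 in ILC2-like, 2 in ILC3-like and 0 in monocyte and macrophage-like, T-like and NK-like cells. With clusters weighted alike the family ratio reversed to 0.20 in T-like cells and was 0.23 in neutrophil-like and 0.71 in B-like cells, with 1 higher and 0 lower members in T-like, 1 lower in neutrophil-like and 0 lower in monocyte and macrophage-like cells.

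With immunoglobulin, ribosomal and mitochondrial genes left out of the total, the T-like ratio was -0.47 with 2 lower members. Levels became 1456 and 2474 CPM in monocyte and macrophage-like, 439 and 889 in DC-like, 1351 and 978 in T-like, 899 and 796 in NK-like, 809 and 987 in ILC2-like, 355 and 464 in ILC3-like, 496 and 944 in B-like and 315 and 443 in plasma-like cells, and 3403 in neutrophil-like cells of the library labelled CKO. As a mean over cells, ratios were 0.66 in neutrophil-like, 0.48 in monocyte and macrophage-like and 1.40 in DC-like cells. Levels were 3599 CPM in neutrophil-like and 771 in DC-like cells labelled CKO, 1458 and 2037 in monocyte and macrophage-like, 1009.6 and 809.9 in T-like and 330.4 and 629 in B-like cells. Higher members numbered 4 in neutrophil-like, 2 in ILC2-like and 0 in NK-like cells, and lower members 2 in monocyte and macrophage-like and 0 in NK-like cells. Without the cell of most GBP UMIs in each library, the DC-like ratio was 1.41 (256 CPM in the library labelled WT), ILC2-like cells of that library stood at 485 CPM, and higher members numbered 4 in neutrophil-like and 3 in ILC2-like cells.

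At 500 genes and 10% mitochondrial UMIs the plasma-like ratio was 0.19 (149 CPM in the library labelled WT) with 0 higher members. At 2-fold, higher members numbered 2 in monocyte and macrophage-like, 0 in NK-like, 3 in B-like and 1 in plasma-like cells, and lower members 0 in NK-like and ILC3-like cells. With 50 UMIs as the minimum, ILC3-like cells had 0 higher and 0 lower and monocyte and macrophage-like cells 0 lower. ILC3-like cells had 3 higher members with 1 UMI in each library as the minimum, 2 with GTPase genes in the clustering and 2 with median ratio scaling. That scaling gave 4 higher members in neutrophil-like cells, and under it and with GTPase genes in the clustering NK-like cells had 0 lower. With those genes in the clustering DC-like cells of the library labelled CKO stood at 730.3 CPM, and with marked doublets kept its monocyte and macrophage-like cells at 2037 CPM. At Leiden resolution 2 the highest cluster stood at 6209.6 CPM in neutrophil-like, 2666 CPM in T-like and 1260.2 CPM in B-like cells. Of the 10 genes most like the family, 3 were shared with Spearman's correlation. With another clustering seed, chosen after seeing the data, every recomputed level, ratio and count stayed within these limits. The report gives the ranges over 5 seeds, among which the NK-like ratio alone changed sign. The seed that changed it also gave a smaller NK-like class.

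The share of cells with a GBP UMI depends on depth. At 2000 UMIs it was 91.7% in neutrophil-like, 52.7% in DC-like and 41.7% in ILC3-like cells labelled CKO, and 63.6 and 89.0% in monocyte and macrophage-like, 65.1 and 61.3% in T-like, 61.7 and 65.2% in NK-like, 53.5 and 61.2% in ILC2-like, 37.2 and 57.6% in B-like and 16.4 and 27.3% in plasma-like cells. Without thinning it was 93.6% in neutrophil-like cells of the library labelled CKO, and 88.5 and 94.7% in monocyte and macrophage-like, 53.8 and 81.1% in DC-like, 82.1 and 78.6% in T-like, 87.2 and 86.6% in NK-like, 73.5 and 69.1% in ILC2-like, 62.9 and 54.2% in ILC3-like, 55.3 and 67.5% in B-like and 75.5 and 74.7% in plasma-like cells.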
